A study of Mus musculus with 6 samples.

Results

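The 56 genes described here are the mouse histocompatibility genes and their partners in antigen presentation, among 54735 gene rows counted in embryonic pancreas. They comprise every row whose symbol begins with H2-, which gave 45 rows, and 11 further symbols: B2m, Tap1, Tap2, Tapbp, Psmb8, Psmb9, Psmb10, Nlrc5, Ciita, Cd74 and Gabbr1. By class, 3 rows were class Ia genes or the neighbouring class I row H2-K2, 29 were class Ib, 12 were class II, 7 belonged to the presentation machinery and 3 were transactivators or the invariant chain. The last 2 were Gabbr1 and H2-Ke6, which lie in the same region. On the GRCm38 build, 51 of the 56 lie on chromosome 17 between 33915899 and 37483552. The list was chosen by symbol, on the measured difference between the groups in these same libraries, so that difference is described for its genes, and the calls of the fit across all genes are given for them as a description that supports nothing further.

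RNA was sequenced from 6 samples of whole mouse pancreas, each dissected at e16.5. The 3 control samples carried Neurog3:cre, a driver named for the transcription factor gene of endocrine progenitors, and the 3 RARdn samples carried Neurog3:cre;RARdnfl/fl. The study asked how retinoic acid signalling in those progenitors bears on islet cell specification. The driver was therefore common to both groups, the labels give no RARdnfl/fl sample without it, and RNA came from every cell of the organ. Both groups had a mixed C57Bl6/129SV background; the labels give no H2 haplotype, and the tables hold no allele calls. Counts in genes ranged from 35256531 to 52015498 per library, and all 15 markers of pancreatic epithelium were detected; they summed to 83475 to 92745 CPM in controls and 27652 to 129389 CPM in RARdn libraries, lowest in RARdn 1. Levels are library-scaled counts (CPM) after TMM scaling, with n = 3 per group, and in bulk RNA fewer cells of a type and less RNA per cell cannot be told apart. The labels do not say whether the embryos came from separate litters, so the spread may partly be technical. Xist, which female cells express, measured 1158 CPM in control 1 and 1118 CPM in control 3, and no other library passed 0.312 CPM. In a fit with Xist as a covariate, none of the genes described here was called, and 47 genes were called over the whole table. Control 2 is the only control without Xist, so in that fit the genotype term rests almost wholly on 1 control sample.

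Class I molecules show peptides from inside the cell to cytotoxic T cells. Each is a heavy chain, encoded in the H2 region, held by the light chain beta-2 microglobulin. The proteasome cuts the peptides, the Tap transporter carries them into the endoplasmic reticulum, and tapasin loads them. Class II molecules show peptides taken up from outside, mainly on dendritic cells, macrophages and B cells, and the invariant chain Cd74 guards their groove until it is loaded.

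Of the 56 rows, 35 passed the filter on low counts and entered the fit across 19070 genes, and 8 had no count in any library. The other 13 had counts but at most 15 in a library. Over all genes tested, 4.02% were called at an adjusted p under 0.05 by edgeR's quasi-likelihood test, 1.37% higher and 2.65% lower in RARdn pancreas. Among the 35, 5 were called (14.3%): 3 were higher (H2-Ea-ps, Cd74 and Gabbr1) and 2 lower (H2-K1 and H2-Q2). Libraries of the groups did not overlap for 12 of the 35, against 27.6% of all genes tested. These shares are descriptive, because the genes were chosen with this contrast known. None of the 5 was called without RARdn 2, and H2-D1 was the 1 gene of the list called there. H2-K1 was also not called without control 1 or control 3, Cd74 without control 2 or control 3, and Gabbr1 without control 1. H2-Q2 kept its call without RARdn 3 and lost it without each of the other libraries. The median log2 fold change of the 35 was 0.25, and that of all genes tested was 0.0005. Of the 35 fitted values, 22 were above 0 and 13 below.

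**Figure D1:**
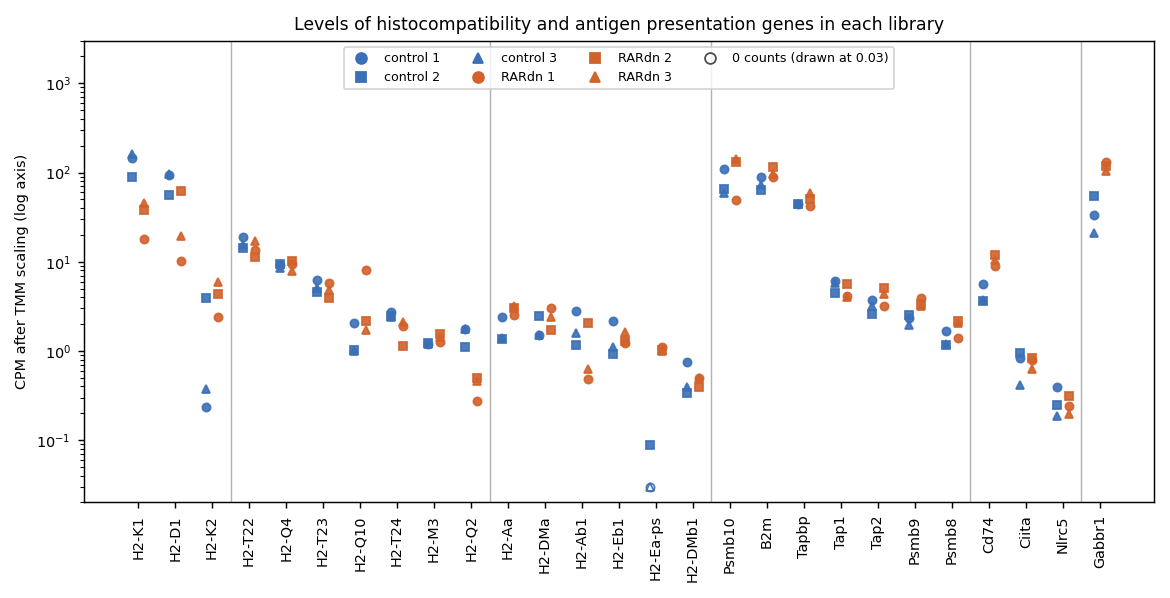
Level of each named gene in each library as CPM after TMM scaling on a log axis, with controls in blue, RARdn libraries in orange and 1 symbol per replicate; vertical lines part class Ia, class Ib, class II, presentation machinery, transactivators and Gabbr1. H2-K1 lies at 89.9 to 162 CPM in controls and 17.9 to 45.1 CPM in RARdn libraries, whereas H2-Q4, H2-T22 and H2-T23 overlap between groups.

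The classical class I heavy chain genes H2-K1 and H2-D1 were lower in RARdn pancreas, with 1 library of H2-D1 as an exception. H2-K1 (chromosome 17, 33996017 to 34000347) stood at 144, 89.9 and 162 CPM in controls 1 to 3 and at 17.9, 37.6 and 45.1 CPM in RARdn libraries 1 to 3. Every RARdn library lay below every control, and control 2 was the lowest of the controls. The means went from 132 ± 37.4 to 33.5 ± 14.04 CPM, which is 3.93-fold lower (log2 fold change -1.98, SE 0.34). H2-D1 (chromosome 17, 35262730 to 35267499) stood at 94.7, 55.3 and 95.8 CPM in controls 1 to 3 and at 10.1, 61.3 and 19.4 CPM in RARdn libraries 1 to 3. RARdn 2 lay within the control range, while RARdn 1 and 3 lay far under it (log2 fold change -1.43, SE 0.56). Without RARdn 2, the log2 fold change of H2-D1 was -2.48. The ratio of H2-K1 to H2-D1 counts was 1.52, 1.62 and 1.69 across controls 1 to 3 and 1.78, 0.614 and 2.32 across RARdn libraries 1 to 3, so the library that kept the H2-D1 level was the one with the lowest ratio. The log2 fold change of H2-K1 ran from -2.24 to -1.64 when 1 library was left out and was -1.35 with Xist as a covariate.

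The promoters of both genes are shown with their matches to short motifs. Sequences are those of RefSeq for GRCm38.p6, from 250 bases before to 50 after the transcript start, and 39 of the 56 genes had one. Capitals mark matches on either strand to 4 motifs: the Y box CCAAT, the CRE half-site TGACG, the kappa B site, whose letters are the first capitals in H2-K1 and H2-D1, and the interferon-stimulated response element. The last is searched as GAAA, any 2 bases and GAAA again, and is the first run of capitals in H2-T23, on the opposite strand. No match overlaps another in these windows, and where a gene had several starts the first listed was used. H2-T23, a class I gene whose levels overlapped between groups, is set beside them.
H2-K1 (chr17:34000298-34000597, minus strand): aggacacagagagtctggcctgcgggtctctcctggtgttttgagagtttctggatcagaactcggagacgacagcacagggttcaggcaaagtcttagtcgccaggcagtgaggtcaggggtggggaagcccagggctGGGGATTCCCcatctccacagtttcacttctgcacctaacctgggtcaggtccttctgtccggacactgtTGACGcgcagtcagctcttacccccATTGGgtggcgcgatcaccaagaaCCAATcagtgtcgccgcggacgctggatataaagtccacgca
H2-D1 (chr17:35262844-35263143, plus strand): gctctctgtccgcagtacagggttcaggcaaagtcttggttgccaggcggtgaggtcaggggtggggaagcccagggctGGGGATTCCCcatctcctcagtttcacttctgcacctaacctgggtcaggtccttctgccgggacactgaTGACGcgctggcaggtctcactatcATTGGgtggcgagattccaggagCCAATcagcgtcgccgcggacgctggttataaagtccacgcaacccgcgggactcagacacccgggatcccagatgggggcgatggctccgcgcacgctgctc
H2-T23 (chr17:36032652-36032951, minus strand): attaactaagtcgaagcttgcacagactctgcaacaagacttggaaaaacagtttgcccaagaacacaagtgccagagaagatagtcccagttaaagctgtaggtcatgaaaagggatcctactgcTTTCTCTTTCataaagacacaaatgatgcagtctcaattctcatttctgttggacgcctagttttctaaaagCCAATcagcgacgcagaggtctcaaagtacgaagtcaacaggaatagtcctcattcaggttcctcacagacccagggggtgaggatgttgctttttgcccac

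The kappa B site was searched in the capitalised spelling only, with no variable letters. That spelling occurred in 28 of 27025 promoters (0.104%) and in 4 of the 39 here, those of H2-K1, H2-D1, H2-Q6 and H2-Q7. All 4 belong to the 23 class I promoters here, whose genes resemble each other, so they are not independent matches. The letters searched are also those of the H2-K1 promoter itself, so its match is no separate observation. Other spellings of the site were not searched, so its rarity in any form is not known. Promoters without a match, such as that of H2-Q4, can still hold another form. The 4 genes with a match all had a fitted log2 fold change below 0, as did 8 of the 16 class I rows tested. H2-Q2, which was also lower, had no such match, and H2-Q6 overlapped between groups. The list was chosen on this contrast, so no link between the site and the levels is read from these values. The interferon-stimulated response element, in the searched form, was found in 3 of the 39 (B2m, H2-T22 and H2-T23), against 3.49% of all promoters. Other forms of the element were not searched. A promoter without a match, as in H2-K1 and H2-D1, can therefore still hold such an element. The Y box was found in 32 of the 39, against 37.9%, and the CRE half-site in 15, against 21%. These are matches of letters only, and no binding was measured.

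H2-K2, the class I row beside H2-K1 that GENCODE annotates as a transcribed pseudogene (chromosome 17, 33974659 to 33978827), had the opposite pattern and set control 2 apart. Its counts were 9, 174 and 16 across controls 1 to 3 and 140, 219 and 182 across RARdn libraries 1 to 3. Control 2, at 3.88 CPM, thus lay with the RARdn libraries (2.39 to 5.99 CPM), and control 1 and 3 lay at 0.235 and 0.370 CPM. The ratio of H2-K1 to H2-K2 counts was 611, 23.2 and 437 across controls 1 to 3 and 7.49, 8.71 and 7.53 across RARdn libraries 1 to 3. Its log2 fold change was 1.48 with all libraries, 3.78 without control 2 and -0.0069 with Xist as a covariate, a fit that in effect sets control 2 against the RARdn libraries. The low class Ib rows H2-Q1 and H2-T-ps, chosen after their values were seen, also placed control 2 nearer to the RARdn libraries. H2-Q1 stood at 0.104, 0.668 and 0.208 CPM in the controls and 0.752, 0.651 and 1.02 CPM in the RARdn libraries. H2-T-ps, an unprocessed pseudogene, stood at 0.0261, 0.2005 and 0.0695 CPM in the controls and 0.188, 0.395 and 0.296 CPM in the RARdn libraries.

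**Figure D2:**
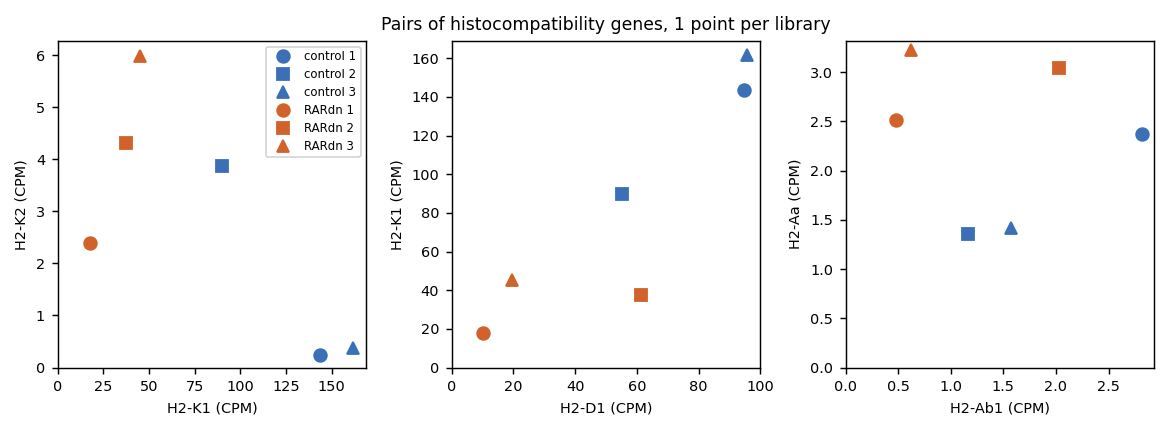
CPM of 3 pairs of genes against each other, 1 point per library (controls blue, RARdn orange, symbols for replicates 1 to 3). Control 2 sits between the other controls and the RARdn libraries for H2-K1 and at the RARdn level for H2-K2, RARdn 2 stands apart from RARdn 1 and 3 on the H2-D1 axis, and RARdn 1 and 3 combine high H2-Aa with low H2-Ab1.

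Class Ib genes encode less variable relatives of the classical chains, and most of those with measurable levels did not follow H2-K1. H2-T22, a ligand of gamma delta T cells, stood at 18.8, 14.3 and 15.5 CPM in the controls and 13.5, 11.3 and 16.95 CPM in the RARdn libraries (log2 fold change -0.22, SE 0.18). H2-T23 encodes Qa-1, which presents a leader peptide to natural killer cell receptors, and stood at 6.19, 4.63 and 5.07 CPM in the controls and 5.73, 3.95 and 4.81 CPM in the RARdn libraries (log2 fold change -0.13, SE 0.21). H2-Q4 was nearly level, at 9.02 ± 0.468 CPM in controls and 9.18 ± 1.24 CPM in RARdn libraries (log2 fold change 0.03, SE 0.15). The groups overlapped for all 3. H2-M3, which presents formylated peptides, was at 1.20 ± 0.0223 CPM in controls and 1.41 ± 0.155 CPM in RARdn libraries, and H2-T24 was at 2.52 ± 0.175 CPM in controls and 1.72 ± 0.506 CPM in RARdn libraries. For H2-M3 every RARdn library lay above every control and for H2-T24 below, with log2 fold changes of 0.23 (SE 0.26) and -0.56 (SE 0.28).

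A pair of class Ib genes of the Q region differed by more. H2-Q2 (chromosome 17, 35342242 to 35346762) stood at 1.77, 1.11 and 1.76 CPM in controls 1 to 3 and at 0.274, 0.493 and 0.461 CPM in RARdn libraries 1 to 3. No RARdn library reached the lowest control (log2 fold change -1.93, SE 0.37). H2-Q10 encodes a class I protein that the liver secretes, and it stood at 2.06, 1.02 and 0.995 CPM in controls 1 to 3 and at 8.09, 2.17 and 1.71 CPM in RARdn libraries 1 to 3 (log2 fold change 1.57, SE 0.60). RARdn 1 alone was high, and without it the log2 fold change was 0.55. Alb, a gene of liver cells, stood at 597, 137 and 3.19 CPM in RARdn 1, 2 and 3 and at 1.18 to 2.92 CPM in controls, and its part in the H2-Q10 difference was not tested. Under 1 CPM in both groups, H2-Q7 was lower in every RARdn library than in any control (0.897 ± 0.419 and 0.246 ± 0.171 CPM). H2-Q6 overlapped through RARdn 2, at 0.414 CPM against 0.0342 and 0.0329 CPM in RARdn 1 and 3. H2-T10 was high in RARdn 2 alone, at 2.15 CPM against 0.342 and 0.197 CPM in RARdn 1 and 3 and 0.0522 to 0.255 CPM in controls. H2-Q6, H2-Q7 and H2-T10 were chosen after their values were seen. Of the 14 rows of the M family, 13 stayed under 1 CPM in every library.

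Class I rows resemble each other, so reads can be split or lost among them. Of all 50-base stretches in the GENCODE transcripts of H2-K1, 90.4% occurred in the transcripts of no other gene, and for H2-D1 the share was 87.2%. It was 90.6% for H2-K2, 83.9% for H2-Q2 and 63.6% for H2-Q4. H2-T22 and H2-T10 share much sequence with each other, and only 46.5% and 49.6% of their stretches were their own, so their separate levels are uncertain. Summed over the 32 class I rows, the level was 255 ± 60.3 CPM in controls and 107 ± 32.9 CPM in RARdn pancreas, 2.39-fold lower. By library the sum was 282, 186 and 297 across controls 1 to 3 and 73.2, 139 and 108 across RARdn libraries 1 to 3, without overlap between groups. Fitted as 1 row in place of the 32, its log2 fold change was -1.26 (SE 0.25). H2-K1 and H2-D1 together held 84.4, 78.1 and 86.8 across controls 1 to 3 and 38.2, 71.2 and 59.7 across RARdn libraries 1 to 3 as a percentage of these counts. The class Ib rows alone summed to 36.8 to 43.8 CPM in controls and 35.6 to 42.8 CPM in RARdn libraries, and these ranges overlap. Sequence was read from the C57BL/6J reference, and how reads of other alleles aligned to it was not tested.

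Per kilobase of exon, the scale on which genes can be compared, the light chain gene B2m led the list in both groups. Its level was 87.7 CPM per kilobase in controls and 117 in RARdn pancreas. H2-K1 followed in controls with Psmb10 (44.9 and 45.7 CPM per kilobase), and their spreads overlap. H2-D1 stood at 31.8, Tapbp at 12.2, H2-T22 at 4.75 and Gabbr1 at 4.66 CPM per kilobase. In RARdn pancreas H2-K1 and H2-D1 stood at 11.4 and 11.7 CPM per kilobase, and Gabbr1 at 15.2, with overlap between the libraries of all 3. Class II genes were lower: H2-Ab1, H2-Eb1 and H2-Aa stood at 0.721, 0.723 and 0.452 CPM per kilobase in controls.

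B2m itself (chromosome 2, 122147686 to 122153083) was not lower where the heavy chains were. It stood at 89.9, 64.2 and 72.2 CPM in controls 1 to 3 and at 88.7, 116 and 97.0 CPM in RARdn libraries 1 to 3, and RARdn 1 lay within the control range (log2 fold change 0.42, SE 0.15). The ratio of B2m counts to the sum of class I counts was 0.318, 0.345 and 0.243 across controls 1 to 3 and 1.21, 0.838 and 0.897 across RARdn libraries 1 to 3. Each RARdn library exceeded each control in this ratio. The log2 fold change of B2m was above 0 in every alternative fit, from 0.31 to 0.68.

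Genes that cut, carry and load peptides showed small differences. The transporter genes Tap1 and Tap2 stood at 5.44 ± 0.885 CPM in controls and 4.599 ± 0.924 CPM in RARdn libraries and at 3.18 ± 0.599 CPM in controls and 4.19 ± 0.924 CPM in RARdn libraries, respectively, with overlap in both. Tapbp, which encodes tapasin, stood at 44.4 ± 0.430 CPM in controls and 50.3 ± 8.58 CPM in RARdn libraries (log2 fold change 0.18, SE 0.13). Psmb8, Psmb9 and Psmb10 encode the catalytic subunits that interferon adds to the immunoproteasome. Psmb9 stood at 2.32, 2.52 and 1.97 CPM in controls 1 to 3 and at 3.91, 3.33 and 3.19 CPM in RARdn libraries 1 to 3, without overlap (log2 fold change 0.62, SE 0.21). Psmb8 was at 1.34 ± 0.289 CPM in controls and 1.88 ± 0.418 CPM in RARdn libraries, with RARdn 1 in the control range. Psmb10 stood at 110.3, 65.2 and 58.3 CPM in controls 1 to 3 and at 49.7, 130.3 and 140.2 CPM in RARdn libraries 1 to 3. RARdn 1 was the lowest of the 6 and RARdn 2 and 3 the highest, so the SD of the RARdn group was 49.6 CPM around a mean of 107 CPM. None of these 7 machinery genes, B2m included, was called by edgeR; 2 had an unadjusted p under 0.05, as did 4238 of all 19070 genes tested, DESeq2 called 0 and limma-voom called 0. Tap1 and Psmb9 share exons with each other, and Tapbp, Tap2 and Psmb8 with other genes, so reads there cannot be assigned without the strand setting. In all, 16 of the 56 share exons with another gene, H2-Q4 and H2-T22 among them.

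Class II genes did not move as 1 group. H2-Ea-ps (chromosome 17, 34341959 to 34344645) is annotated as a polymorphic pseudogene: it encodes the E alpha chain in mice with an intact copy, and C57BL/6 mice lack its promoter through a deletion. Its counts were 0, 4 and 0 across controls 1 to 3 and 65, 52 and 30 across RARdn libraries 1 to 3. Without allele calls these counts cannot be assigned to either strain of the mixed background. A count of 0 allows up to 0.0783 and 0.0695 CPM in control 1 and 3, counting error only. Control 2 was at 0.0891 CPM and the RARdn libraries at 1.11, 1.03 and 0.987 CPM, a narrow range far above every control. The mean was 35.1-fold higher, a ratio that rests on 4 control counts (log2 fold change 4.94, SE 0.76). The fitted value was 3.24 with Xist as a covariate and 8.53 without control 2, where both controls are at 0 and the value depends on the prior count. All 50-base stretches of its transcripts were its own. Its partner H2-Eb1, the E beta chain, stood at 2.19, 0.913 and 1.11 CPM in the controls and 1.21, 1.28 and 1.65 CPM in the RARdn libraries (log2 fold change -0.03, SE 0.37).

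H2-Aa and H2-Ab1 encode the 2 chains of the A molecule and diverged within libraries. H2-Aa stood at 2.38, 1.36 and 1.41 CPM in controls 1 to 3 and at 2.51, 3.04 and 3.23 CPM in RARdn libraries 1 to 3. Each RARdn library was above each control (log2 fold change 0.77, SE 0.28). H2-Ab1 stood at 2.82, 1.16 and 1.57 CPM in controls 1 to 3 and at 0.479, 2.03 and 0.625 CPM in RARdn libraries 1 to 3 (log2 fold change -0.80, SE 0.57). RARdn 1 and 3 were below all controls and RARdn 2 was among them. The log2 fold change of H2-Ab1 was -1.75 without RARdn 2, -0.37 without control 1 and -0.07 with Xist as a covariate. The ratio of H2-Aa to H2-Ab1 counts was 0.843, 1.17 and 0.897 across controls 1 to 3 and 5.25, 1.495 and 5.16 across RARdn libraries 1 to 3. RARdn 2 was thus the RARdn library nearest to controls for H2-Ab1, as for H2-D1. H2-DMa and H2-DMb1, whose protein exchanges peptides on class II molecules, stood at 1.82 ± 0.543 CPM in controls and 2.36 ± 0.646 CPM in RARdn libraries and at 0.495 ± 0.229 CPM in controls and 0.461 ± 0.0579 CPM in RARdn libraries. H2-DMa shares exons with Brd2, which was at 198 to 269 CPM, so its level is uncertain. At lower levels, H2-DMb2 and H2-Oa, chosen after their values were seen, were higher in every RARdn library than in any control (0.142 and 0.610 CPM, and 0.128 and 0.336 CPM).

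Cd74, the invariant chain gene (chromosome 18, 60803848 to 60812652), was higher in RARdn pancreas. It stood at 5.64, 3.65 and 3.73 CPM in controls 1 to 3 and at 8.91, 11.9 and 10.3 CPM in RARdn libraries 1 to 3. The lowest RARdn library exceeded the highest control by more than the range of the controls, and the mean was 2.39-fold higher (log2 fold change 1.26, SE 0.21). Ciita, the transactivator of class II genes, stood at 0.835, 0.958 and 0.417 CPM in the controls and 0.786, 0.829 and 0.625 CPM in the RARdn libraries (log2 fold change 0.03, SE 0.39). Nlrc5, its counterpart for class I genes, stood at 0.392, 0.245 and 0.185 CPM in the controls and 0.239, 0.316 and 0.197 CPM in the RARdn libraries (log2 fold change -0.10, SE 0.47). Neither differed beyond the spread of its libraries. Ciita shares exons with Dexi, at 19.7 to 33.9 CPM, and its own level is uncertain for that reason.

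Markers of cells that carry class II molecules were read beside these genes. Of 14 macrophage markers, 2 rose by edgeR's quasi-likelihood test (14.3%, against 4.02% of all genes) and none fell: Cx3cr1, a chemokine receptor gene (13.9 ± 1.86 CPM in controls and 23.1 ± 3.75 CPM in RARdn libraries, adjusted p = 0.0401), and Csf1r, the receptor for a macrophage growth factor (30.7 ± 6.30 CPM in controls and 53.9 ± 11.1 CPM in RARdn libraries, adjusted p = 0.0454). In the list, 8 had an unadjusted p under 0.05, as did 4238 of all 19070 genes tested. DESeq2 called 7 of the list and limma-voom called 3. Over all genes, DESeq2 called 2253 of 24686 and limma-voom 796 of 19070. Both named genes overlap other annotated genes. Neither was called without control 2, control 3 or RARdn 2, with Xist as a covariate, with protein-coding genes alone or at a minimum of 1 CPM in 3 libraries, and Cx3cr1 also not without control 1 or with the replicate block. In 6 of the 14, each RARdn library exceeded each control, while 27.6% of all genes did not overlap in either direction, and the median log2 fold change was 0.65. The summed level of the list overlapped, at 375 to 529 CPM in controls and 371 to 564 CPM in RARdn libraries. Of 9 dendritic cell markers, 6 were tested and 0 were called by edgeR, with 0 at an unadjusted p under 0.05 and 0 called by DESeq2. Their sums were 14.3 to 18.5 CPM in controls and 17.7 to 18.8 CPM in RARdn libraries, where Zbtb46 held most and 8 of the 9 had a mean under 1 CPM. Of 8 B cell markers, 3 were tested and 0 called by edgeR, with 1 at an unadjusted p under 0.05 and 0 called by DESeq2, and 7 had a mean under 1 CPM. Their sums were 19.7 to 25.9 and 22.6 to 34.9 CPM. Of 9 T cell, natural killer and innate lymphoid markers, 4 were tested and 1, Cd4, rose by edgeR's quasi-likelihood test (25%, against 4.02% of all genes). Cd4 stood at 0.494 ± 0.222 CPM in controls and 1.78 ± 0.472 CPM in RARdn libraries (adjusted p = 0.0419). In that list 2 had an unadjusted p under 0.05, and DESeq2 and limma-voom called 2 each. Cd4 was not called with Xist as a covariate, with protein-coding genes alone, at a minimum of 1 CPM in 3 libraries, or when any single control, RARdn 1 or RARdn 2 was left out. The sums were 30.1 to 35.8 and 32.7 to 38.7 CPM. The part of these cells in the Cd74 and class II differences was not tested.

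Endothelium, which carries much class I, was read beside H2-K1 in the same way. Its 7 markers summed to 486 to 594 CPM in controls and 527 to 557 CPM in RARdn libraries, within the control range. edgeR called 0 of the 7, and DESeq2 called 0. An unadjusted p under 0.05 was found for 1 of the 7 and for 4238 of all 19070 genes tested. Cdh5 was at 167 ± 9.29 CPM in controls and 167 ± 14.6 CPM in RARdn libraries and Pecam1 at 132 ± 14.8 CPM in controls and 132 ± 6.21 CPM in RARdn libraries. The part of endothelium in the H2-K1 difference was not tested.

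Gabbr1, a subunit of the receptor for the transmitter GABA, takes no part in antigen presentation and lies among the H2-M genes (chromosome 17, 37045966 to 37075067). It stood at 33.2, 54.0 and 21.2 CPM in controls 1 to 3 and at 132, 118 and 104 CPM in RARdn libraries 1 to 3. All RARdn libraries lay far above control 2, the highest control. The mean was 3.26-fold higher (log2 fold change 1.71, SE 0.29). The SD was 16.6 CPM in controls and 13.9 CPM in RARdn libraries, and without control 2 the log2 fold change was 2.12. With Xist as a covariate it was 1.06. H2-Ke6, a dehydrogenase gene with an H2 symbol, had at most 9 counts in a library, and 29.5% of its stretches were its own.

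**Figure D3:**
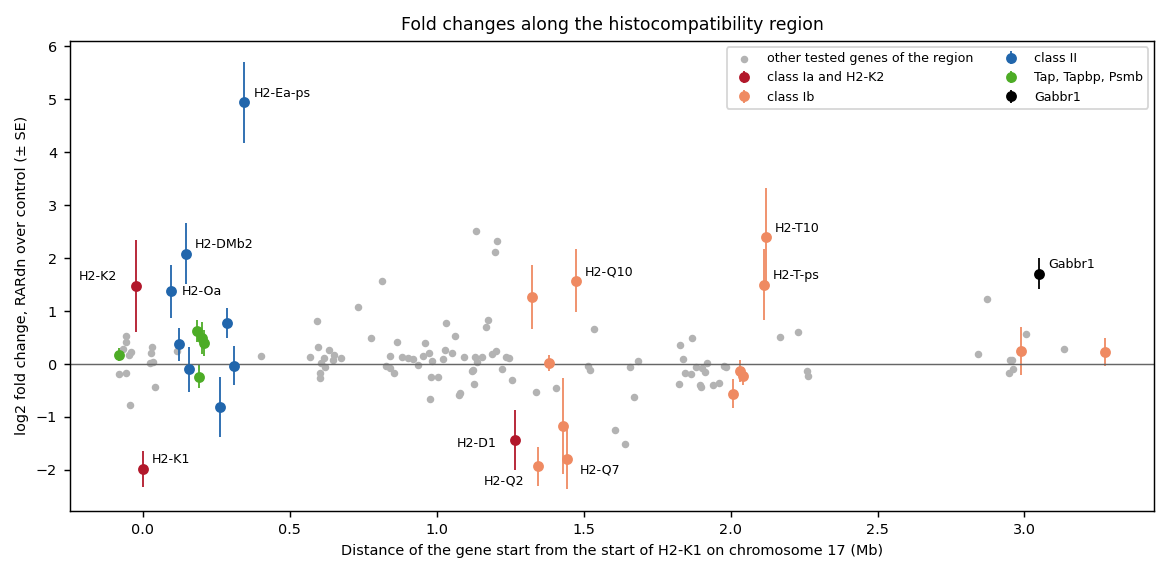
Log2 fold change of RARdn over control, with SE for the genes described here, against the distance of each gene's lowest base from that of H2-K1 on chromosome 17, in megabases; grey points are the other tested genes of the region. Differences of both signs occur along the region, with H2-K1 at -1.98, H2-K2 at 1.48, H2-Ea-ps at 4.94, H2-D1 at -1.43, H2-Q2 at -1.93 and Gabbr1 at 1.71.

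The other genes of the histocompatibility region lie outside the list and were tested. The region holds 278 further gene rows, of which 109 were tested and 3 were called (2 higher and 1 lower), a share of 2.75% that lies under the 4.02% of all genes. Their median log2 fold change was 0.08, and libraries of the groups did not overlap for 22 of the 109, against 27.6% of all genes. The called genes were Lta and Ltb, which encode lymphotoxins, and Rps18, which encodes a ribosomal protein. Ltb rose from 0.782 ± 0.430 to 3.35 ± 0.804 CPM (log2 fold change 2.11, SE 0.39, adjusted p = 0.0261). Lta rose from 0.151 ± 0.0337 to 0.770 ± 0.111 CPM (log2 fold change 2.33, SE 0.40, adjusted p = 0.0192). Rps18 fell from 829 ± 133 to 482 ± 27.1 CPM (log2 fold change -0.78, SE 0.17, adjusted p = 0.0418); it overlaps Vps52 and, like most ribosomal protein genes, has processed copies. Lta and Rps18 were also not called without control 1, and Rps18 not without RARdn 1, with the replicate block or at a minimum of 1 CPM in 3 libraries. None of the 3 was called without control 2, control 3 or RARdn 2, with Xist as a covariate or with protein-coding genes alone, where adjusted p reached 0.191 for Ltb, 0.319 for Lta and 0.599 for Rps18.

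Interferon is a main inducer of class I genes, and genes of its pathway outside the list were read beside them. Of 55 such genes, 52 were tested and edgeR called 0, against 4.02% of all genes. Of these, 9 had an unadjusted p under 0.05, as did 4238 of all 19070 genes tested. DESeq2 called 1, which was Socs1, and limma-voom called 0. The 52 divided evenly, 26 above and 26 below 0, with a median log2 fold change of -0.0033. The most abundant were Ifitm3, a membrane protein gene induced by interferon (186 ± 18.0 CPM in controls and 149.9 ± 68.0 CPM in RARdn libraries, adjusted p = 0.551), and Jak1, a kinase of the receptors (167 ± 10.6 CPM in controls and 158 ± 18.6 CPM in RARdn libraries, adjusted p = 0.745). The part of interferon in the class I differences was not tested.

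Of 36 further genes of antigen processing, all tested, 1 rose and none fell (2.78%, against 4.02% of all genes). This was Nfya, a subunit of the factor NF-Y that binds the Y box. Nfya stood at 34.4, 38.3 and 34.1 CPM in controls 1 to 3 and at 50.02, 48.9 and 51.7 CPM in RARdn libraries 1 to 3 (log2 fold change 0.50, SE 0.09, adjusted p = 0.0250), without overlap between groups. It was not called without any 1 control, without RARdn 2, with Xist as a covariate or with protein-coding genes alone, and adjusted p over 14 alternatives ran from 0.00292 to 0.465. Calr, the chaperone calreticulin and the most abundant of the 36, was at 2016 ± 170.0 CPM in controls and 1561 ± 445 CPM in RARdn libraries (adjusted p = 0.388). The median log2 fold change of the 36 was -0.05.

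**Figure D4:**
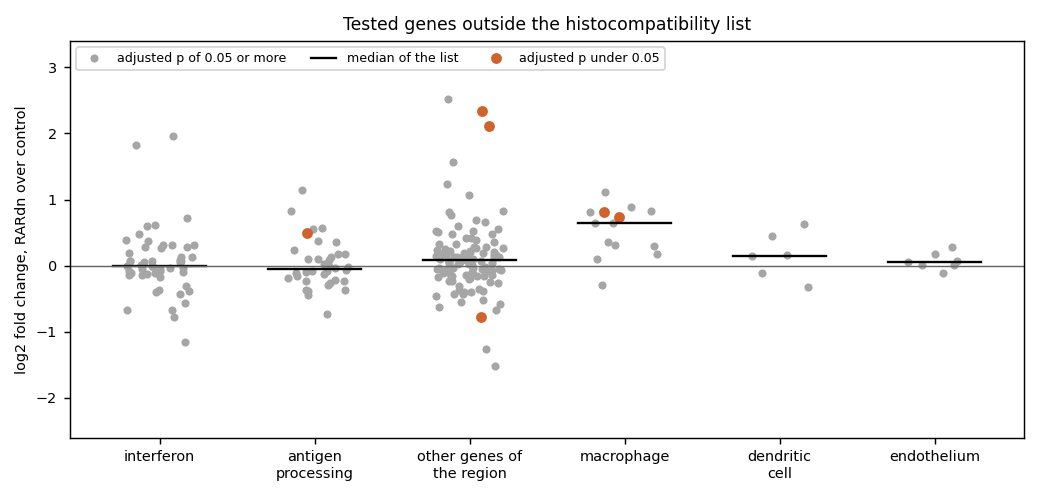
Log2 fold change of RARdn over control for every tested gene of 6 lists outside the genes described here, with genes at an adjusted p under 0.05 in orange and the median of each list as a bar. The 52 interferon genes centre near 0 with none called, and the 14 macrophage markers have a median of 0.65 with 2 called.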

How the data were processed

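Total RNA of 6 whole pancreata was sequenced, 3 per group as the sample titles give them. Each deposited table holds raw counts of reads, 1 row per gene symbol, in the layout of HTSeq. Tools named in the submitters' processing notes are HISAT2, HTSeq, cutadapt, FastQC, DESeq2 and bedtools, with builds mm10 and GRCm38. Versions, annotation and strand setting were not given in the sources used. The 5 summary lines were left out; reads outside genes were 2.90 to 8.99% of all reads, those in more than 1 gene 4.87 to 5.49% and those not uniquely aligned 11.1 to 15.9%.

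The genes and lists were chosen with earlier results of these data known. Positions and exon lengths come from GENCODE M21 (GRCm38), which held 54183 of the symbols. The counts were fitted with edgeR 4.0.16 in R 4.3.3: filterByExpr, TMM scaling, genotype as the only term, the 2-sided quasi-likelihood test and Benjamini-Hochberg adjustment over 19070 genes. The SE is the absolute log2 fold change over the root of F. The fit was tested on simulated data. Genes were named by a fixed rule: the main class I and II chains and all other symbols of the list, each further member with a mean of at least 1 CPM in either group, and from each other list up to 6 called genes, filled up to 2 by abundance; exceptions are marked. The alternatives were RLE scaling, other filters, DESeq2 1.42.0, limma-voom (limma 3.58.1), a replicate block, Xist (log2 of CPM plus 0.1) as a covariate, protein-coding genes only, summed class I rows and leaving out each library. Values after ± in the text are the SD between the libraries of a group, and the SE also takes in the spread between libraries. The limit given for a count of 0 covers counting error only.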

Additional observations from a re-analysis of the deposited data

How the results depend on the processing

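In the reported fit, 767 genes, 5 of the histocompatibility list, 0 interferon genes, 1 antigen processing gene and 3 other genes of the region were called. Without a filter on low counts the calls were 2346 over all genes, 10 of the histocompatibility list, 2 interferon genes, 4 antigen processing genes and 11 other genes of the region. DESeq2 called 2253, 8, 1, 4 and 10 in the same order. With Xist as a covariate they were 47, 0, 0, 0 and 0, and the log2 fold change of the summed class I rows went from -1.26 to -0.75. Protein-coding genes alone gave 111 over all genes, 3 of the list, 0 antigen processing genes and 0 of the region, and a minimum of 1 CPM in 3 libraries gave 217 over all genes and 1 of the region. Leaving out 1 library gave 100 to 2980 over all genes, 1 to 5 of the list (without RARdn 2 only H2-D1, so that all 5 reported calls were lost), 0 to 3 interferon genes, 0 to 6 antigen processing genes, 0 to 14 of the region, and -1.49 to -1.02 for the summed class I rows. The cause of these shifts was not tested. Among the fits that left out 1 library, the lowest count over all genes came without control 2 and the highest without RARdn 3. Of 389 refitted values of 27 named members, 363 moved by less than the spread between replicates, and no called member changed sign. Of the members, 9 not called changed sign at least once. Deviations from the group means correlated at 0.0129, -0.0135 and 0.126 between same-numbered samples. Between samples of unlike number the values ran from -0.0888 to 0.0920. With 3 libraries per group this check cannot tell whether replicate numbers mark a shared litter or day. With the replicate block, 817 genes and 5 of the list were called, and the summed class I rows were at -1.28. Depth left 13 members with counts, at most 15 in a library, outside the test.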
